A study of Mus musculus with 16 samples.

Results

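The genes described here encode the enzymes that make, destroy and read cyclic AMP, with the scaffolds that hold them in place: adenylyl cyclases (Adcy), phosphodiesterases (Pde), catalytic (Prkac) and regulatory (Prkar) subunits of protein kinase A (PKA), and A-kinase anchoring proteins (Akap). They were chosen by gene symbol. A member also needed a probe above background, meaning a detection p-value below 0.01, on 6 or more of the 16 arrays. Of 52 such genes on the array 32 met this limit, out of 9682 genes tested in all. RNA came from pituitary glands of mouse embryos at embryonic day 17.5, on Illumina bead arrays with 1 array per sample. The 6 Insm1 mutants were labelled Insm1 -/- and the 10 Insm1 controls Insm1 +/-, so the controls carry a mutant allele too. The strain of both groups was given as C57/BL6;129Ola mixed. The labels used here do not describe the mutant allele or say whether a sample held 1 gland or several.

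Cyclic AMP is the second messenger by which several hypothalamic factors act on the pituitary. Receptors for growth hormone releasing hormone and corticotropin releasing hormone couple through the stimulatory G protein to adenylyl cyclase, and dopamine and somatostatin receptors couple through inhibitory G proteins against it. Cyclic AMP binds the regulatory subunits of PKA and frees the catalytic subunits, which phosphorylate targets such as the transcription factor CREB. Phosphodiesterases end the signal by hydrolysing cyclic AMP, cyclic GMP or both, and anchoring proteins place PKA at a given site in the cell.

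Of the 32 members, 8 were lower and 2 were higher in Insm1 mutants than in Insm1 controls. The cyclic nucleotide hydrolases held the largest changes, in both directions: the calmodulin-activated enzyme gene Pde1a was 3.00-fold lower and its relative Pde1b 1.84-fold higher. The cyclases Adcy2, Adcy6 and Adcy9 were lower by smaller amounts, as was the regulatory subunit Prkar1b. Neither catalytic PKA subunit and none of the 8 anchors measured was called by limma (0 of either at an unadjusted p under 0.05). Each gene was read through its probe with the highest mean, and another Akap1 probe was called higher. The 10 called members were 31.2% of the 32, against 29.9% of the 9682 genes tested, so the share of called genes was near that of the array as a whole. The 8 called lower were 25% of the members, against 14.0% of all genes, and the 2 called higher were 6.25%, against 15.9%. The groups did not overlap for 5 members (15.6%), against 9.19% of all genes. Both this count and that of members called lower include Pde6c. It was above background on 0 mutant and 9 control arrays, so a difference was built into its selection. Pde10a, also called lower, met the detection limit through the controls (3 mutant and 10 control arrays). The median change of the members was -0.030 on the log2 scale, beside 0.033 for all genes. All levels are log2 intensities, changes are Insm1 mutant minus Insm1 control, and an adjusted p under 0.05 from the limma fit over 13813 probes is a call. An offset of 16 was added to each intensity before the log, which understates the change of dim probes.

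**Figure D1:**
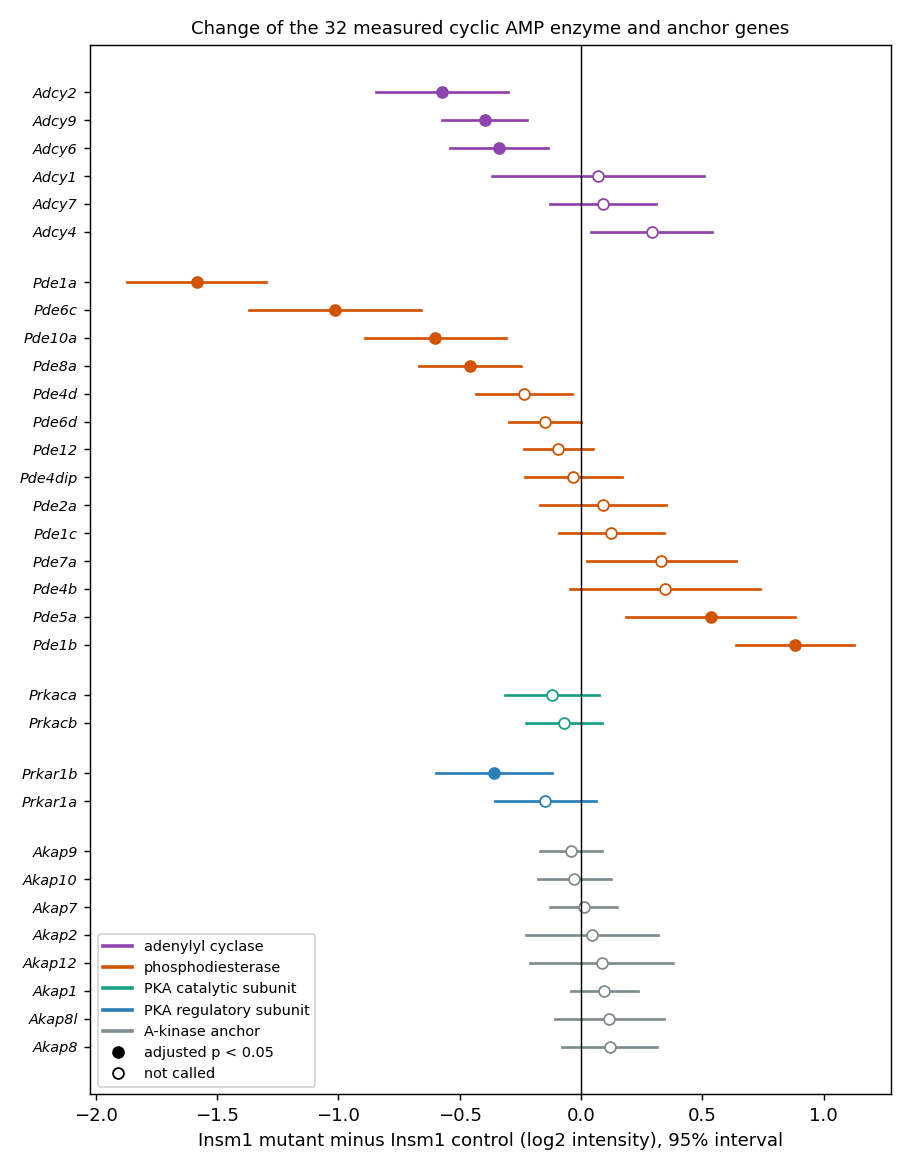
Change of each of the 32 members (Insm1 mutant minus Insm1 control, log2 intensity, horizontal axis) with its 95% interval, grouped by class down the page; filled points have a limma adjusted p under 0.05. The phosphodiesterases spread from -1.58 to 0.88, and the 8 anchors lie between -0.041 and 0.12.

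The arrays of both groups were of similar brightness, with median raw intensities of 96.5 to 132 in Insm1 mutants and 102 to 122 in Insm1 controls. The Insm1 probe was called higher in mutants (11.79 ± 0.23, SD, n = 6) than in controls (11.43 ± 0.18, SD, n = 10; limma adjusted p = 0.0135), so this probe is no check of the labels, and both groups are called by the names their labels give. Of 7 endocrine pituitary markers, all measured, 6 were lower and 1 (Pitx1) was higher (median change -2.72). Gh averaged 8.48 in mutants and 15.22 in controls, Tshb 10.14 in mutants and 14.39 in controls, and Prl was above background on 2 mutant and 10 control arrays. The part of the hormone cells in the members' changes was not tested. Among other cell types, 10 of 10 skeletal muscle markers rose, with Ckm above background on no array. Myod1 was above background on 6 mutant and 0 control arrays, so a difference was built into its selection. Myog and Tnnc2 (1 control array each), Actc1 (2) and Myh8 (3) also met the detection limit through the mutants. Of other markers, 5 of 7 macrophage, 2 of 3 progenitor (Sox9 and Hes1) and 2 of 3 pituicyte and glia markers (Aqp4 and Slc1a3) rose. Fabp7, Gfap and S100b were above background on no array. Of the neuron markers 5 of 9 fell. For endothelium and mesenchyme, 0 of 6 and 0 of 6 markers were called at an adjusted p under 0.05 by limma (1 and 0 at an unadjusted p under 0.05). In bulk tissue, fewer cells of a type and less RNA per cell cannot be told apart. Insm1 control 10 stood between the groups on the first principal component (-2.42, against -37.54 to -24.74 in mutants and 18.21 to 26.86 in the other controls). It was the control nearest to the mutants for Pde1b and Pde10a, and among the nearest 3 for 8 of the 10 called members. Without it all 10 kept their calls.

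Promoter sequence is shown for the called members whose 2 groups did not overlap and for which RefSeq gave a window, and for Prkar1a, which carries the full cyclic AMP response element. Each window holds 300 bases around an annotated start site, most of them upstream of it. Where a gene has several windows, one with the motif is shown, otherwise the most upstream one. Capitals mark the element core TGACG, searched on both strands (CGTCA on the printed strand), which is part of the full palindrome TGACGTCA.
Pde1a promoter, GRCm38.p6 chr2:80038853-80039152, minus strand: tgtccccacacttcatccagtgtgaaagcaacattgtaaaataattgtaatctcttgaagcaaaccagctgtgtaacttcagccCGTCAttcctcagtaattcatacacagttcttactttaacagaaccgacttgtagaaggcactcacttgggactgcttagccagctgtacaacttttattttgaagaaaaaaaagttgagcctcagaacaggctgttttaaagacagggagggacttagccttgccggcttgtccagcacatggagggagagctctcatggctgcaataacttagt
Pde1b promoter, GRCm38.p6 chr15:103502784-103503083, plus strand: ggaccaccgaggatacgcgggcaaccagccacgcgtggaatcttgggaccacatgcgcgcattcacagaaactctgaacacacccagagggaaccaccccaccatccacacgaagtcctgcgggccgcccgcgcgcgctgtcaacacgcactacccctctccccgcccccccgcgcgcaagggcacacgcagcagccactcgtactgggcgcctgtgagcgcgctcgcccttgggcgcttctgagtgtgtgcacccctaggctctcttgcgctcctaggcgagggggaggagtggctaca
Pde8a promoter, GRCm38.p6 chr7:81213015-81213314, plus strand: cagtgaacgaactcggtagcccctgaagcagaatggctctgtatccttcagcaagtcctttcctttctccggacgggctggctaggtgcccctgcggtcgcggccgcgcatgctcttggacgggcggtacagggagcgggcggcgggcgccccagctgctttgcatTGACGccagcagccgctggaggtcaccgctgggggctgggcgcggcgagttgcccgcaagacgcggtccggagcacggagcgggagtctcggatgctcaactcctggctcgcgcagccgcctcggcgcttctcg
Adcy9 promoter, GRCm38.p6 chr16:4420449-4420748, minus strand: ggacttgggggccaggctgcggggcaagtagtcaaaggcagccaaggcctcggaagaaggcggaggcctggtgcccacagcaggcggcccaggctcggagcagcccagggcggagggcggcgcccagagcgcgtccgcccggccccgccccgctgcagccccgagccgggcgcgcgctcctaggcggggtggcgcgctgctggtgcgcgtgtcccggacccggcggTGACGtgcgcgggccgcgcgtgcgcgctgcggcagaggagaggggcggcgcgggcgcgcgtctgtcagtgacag
Prkar1a promoter, GRCm38.p6 chr11:109650612-109650911, plus strand: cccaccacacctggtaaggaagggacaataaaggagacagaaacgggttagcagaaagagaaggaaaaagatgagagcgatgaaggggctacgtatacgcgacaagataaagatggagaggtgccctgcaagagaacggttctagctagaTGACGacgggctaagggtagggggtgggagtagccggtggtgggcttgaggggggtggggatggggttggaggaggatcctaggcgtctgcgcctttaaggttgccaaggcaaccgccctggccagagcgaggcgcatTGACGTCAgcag

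RefSeq gave promoter windows for 27 of the 32 members, 60 windows in all. The core TGACG was present in 13 of them (21.7%), against 20.8% of the 32851 windows of all genes, a share close to that of the members. Of the 8 called members with windows, 4 had the core in at least 1 of them: Pde1a, Pde8a, Adcy9 and Prkar1b. These 8 hold 18 windows, and 4 of the 18 carry the core. Counted by gene, 11 of the 27 members and 23.0% of all genes had it in at least 1 window. A gene with several windows has more chances of a match. The full element TGACGTCA was found in windows of 1 member, Prkar1a, and in 1.79% of all windows. A match describes the letters of the window; no test was run on it.

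Adenylyl cyclases make cyclic AMP from ATP. Of 9 on the array, 6 were measured, and 3 of these fell, 0 rose and 3 were not called (median change -0.13). The 3 not above background on any array were Adcy5, Adcy8 and the soluble cyclase Adcy10.

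Adcy2 is a cyclase that G protein beta-gamma subunits stimulate. Adcy2 levels ran from 8.33 through a median of 8.64 to 8.82 in mutants, against 8.79, 9.26 and 9.61 in controls. It fell by 0.57 on the log2 scale (SE 0.13, limma adjusted p = 0.00273). The groups met at their edges, with the highest mutant (8.82) above the 2 lowest controls, all 3 on slide 2. Within slide 1 the change in Adcy2 was -0.82 and within slide 2 it was -0.34, where it missed the threshold (limma adjusted p = 0.358; 0.00125 to 0.358 over 21 alternatives).

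Adcy9, a widely expressed cyclase, was lower on both slides. Its lowest, median and highest levels were 6.90, 7.28 and 7.44 in mutants and 7.46, 7.61 and 7.79 in controls, so every mutant lay below every control, though by a narrow gap. It fell by 0.40 (SE 0.083, limma adjusted p = 0.00150). The change was -0.40 within slide 1 and -0.44 within slide 2, where it missed the threshold (limma adjusted p = 0.125; 0.000456 to 0.125 over 21 alternatives).

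Adcy6 is a cyclase that calcium inhibits. Its levels were 9.84, 10.07 and 10.30 in mutants (lowest, median, highest), against 10.01, 10.44 and 10.68 in controls. It fell by 0.34 (SE 0.096, limma adjusted p = 0.0129), with overlap of the groups. The call rests on both slides together: within slide 1 the change was -0.35 (adjusted p = 0.158) and within slide 2 it was -0.26 (adjusted p = 0.242), with limma adjusted p from 0.00693 to 0.242 over 21 alternatives.

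The other cyclases were not called. Adcy4, which beta-gamma subunits also stimulate, had levels of 9.16, 9.47 and 10.00 in mutants and 9.00, 9.22 and 9.42 in controls. Its change was 0.29 (95% interval 0.043 to 0.54, limma adjusted p = 0.0755). Another Adcy4 probe was called higher (change 0.40, limma adjusted p = 0.0453). Endothelial cells are a known site of Adcy4, and the summed intensity of 6 endothelial markers (normalised, linear scale) was 8738 to 10830 in mutants and 7665 to 9821 in controls, with Kdr above background on no array; their part in the Adcy4 values was not tested. Adcy7 changed by 0.090 (95% interval -0.13 to 0.31). Adcy1, the neural cyclase that calcium and calmodulin stimulate, passed the detection limit on 5 mutant and 7 control arrays and changed by 0.069 (95% interval -0.37 to 0.51). That interval includes a fall of the size seen for Adcy6.

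Of 25 genes with a Pde symbol on the array, 14 were measured. Of these, 4 fell, 2 rose and 8 were not called, so 42.9% were called, against 29.9% of all genes. The 4 that fell include Pde6c and Pde10a (0 and 3 mutant arrays), which met the detection limit through the controls. By substrate, 3 of the 5 genes for enzymes that act on both cyclic nucleotides were called, Pde10a among them. Of the cyclic AMP specific ones 1 of 4 was called, and of the cyclic GMP specific ones 2 of 2, Pde6c among them. The remaining 3 carry the symbol without being cyclic nucleotide hydrolases, and none of them was called by limma: Pde6d, a chaperone for prenylated proteins, Pde12, an RNA deadenylase, and Pde4dip, the scaffold myomegalin. At an unadjusted p under 0.05 the count for these 3 was also 0. Both counts are for the probe with the highest mean of each gene, and another Pde4dip probe was called lower.

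The PDE1 enzymes are switched on by calcium and calmodulin and hydrolyse both cyclic AMP and cyclic GMP. Pde1a levels were 6.63, 7.03 and 7.38 in mutants (lowest, median, highest), against 8.08, 8.59 and 9.02 in controls. All 6 mutants lay below all 10 controls, with a gap of 0.70 between the groups. Pde1a fell by 1.58 (SE 0.14, limma adjusted p = 1.06e-07). Its other 2 probes changed by -1.50 and -1.56, and the change was -1.71 within slide 1 and -1.48 within slide 2.

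Pde1b moved the other way. Its levels were 11.34, 11.68 and 11.82 in mutants, against 10.43, 10.67 and 11.22 in controls, and the groups did not overlap. The 2 highest controls were control 10 (11.22) and a control on slide 1 (11.17), and the rest lay lower. Pde1b rose by 0.88 (SE 0.12, limma adjusted p = 1.41e-05). The rise was 0.94 within slide 1 and 0.70 within slide 2, where the limma adjusted p was 0.0517 (2.05e-06 to 0.0517 over 21 alternatives). Pde1c, the third of these genes, passed the detection limit on 6 mutant and 8 control arrays and changed by 0.13 (95% interval -0.092 to 0.34). Pde1b is known in macrophages and neurons. The summed intensity of 7 macrophage markers was 2042 to 2536 in mutants and 1614 to 2099 in controls, and that of 9 neuron markers was 3891 to 4850 in mutants and 5110 to 7140 in controls. Fcer1g among the macrophage markers and Nefl, Snap25 and Tubb3 among the neuron markers were above background on no array, and the part of either cell type in the Pde1a and Pde1b values was not tested.

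**Figure D2:**
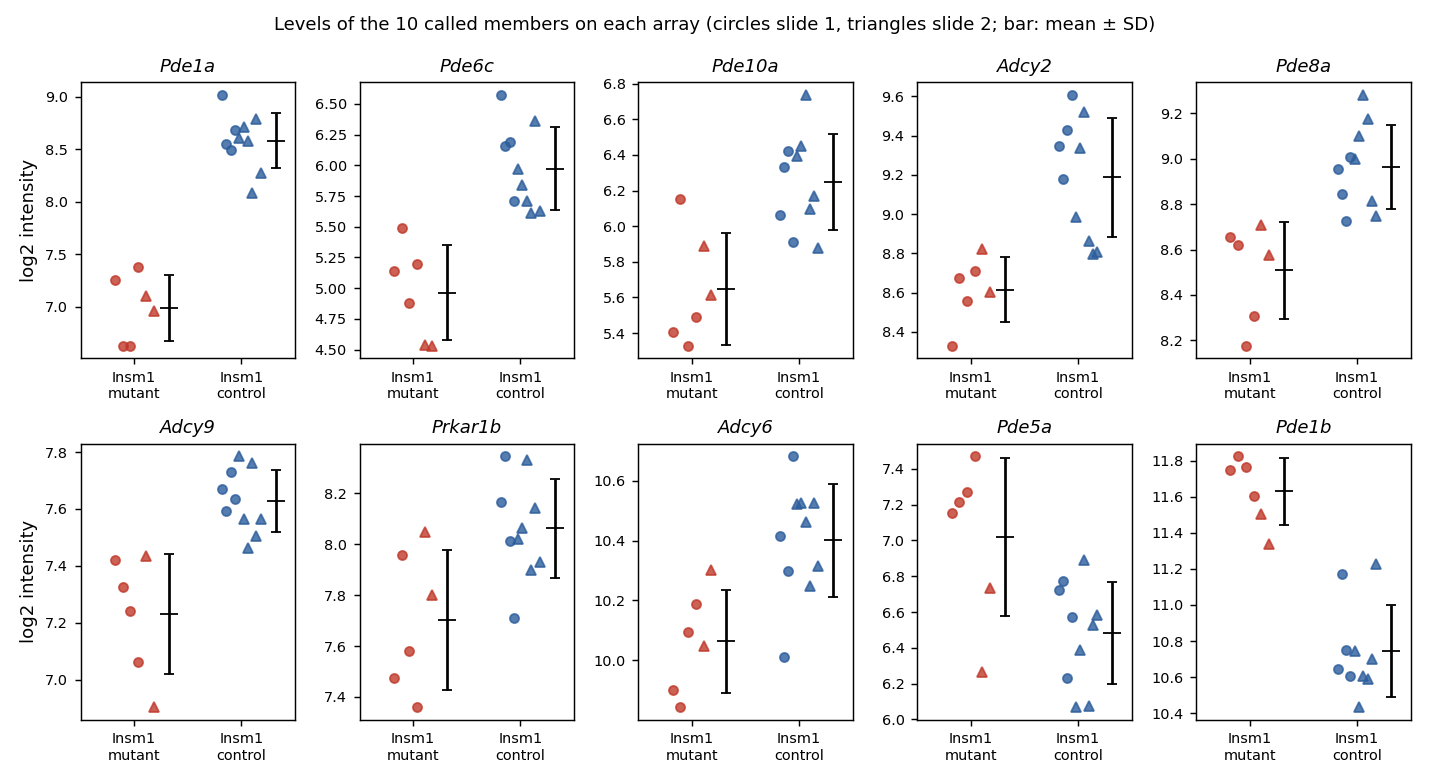
Log2 intensity (vertical axis) of the 10 called members on each array, with 6 Insm1 mutants on the left and 10 Insm1 controls on the right of each panel; circles are slide 1, triangles slide 2, and bars give the mean ± SD. The groups do not overlap for Pde1a, Pde6c, Pde8a, Adcy9 and Pde1b, and for Pde5a the 2 mutants of slide 2 (6.26 and 6.74) sit among the controls.

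Pde6c encodes the catalytic subunit of the cyclic GMP phosphodiesterase of cone photoreceptors. It passed the detection limit on 0 mutant and 9 control arrays, so it entered the tested set through the controls alone and a difference was built into its selection. Levels were 4.53, 5.01 and 5.49 in mutants, against 5.61, 5.90 and 6.57 in controls. Since no mutant array measured it, only a bound holds: Pde6c was at least 1.35-fold lower. The limma adjusted p of 0.000174 comes from the fit of the mutant values as read, below background, and not from this bound. A second Pde6c probe, detected on 1 mutant and 7 control arrays, also met the detection limit through the controls. That probe changed by -0.72 (limma adjusted p = 0.00285).

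Pde10a, an enzyme for both cyclic nucleotides best known from striatal neurons, was detected on 3 mutant and all 10 control arrays. Its levels were 5.33, 5.55 and 6.15 in mutants and 5.88, 6.25 and 6.74 in controls. It fell by 0.60 (SE 0.14, limma adjusted p = 0.00324). Mutants reached into the lower part of the control range. The Pde10a change was -0.59 within slide 1 (adjusted p = 0.0616) and -0.54 within slide 2 (adjusted p = 0.154), with limma adjusted p from 0.000808 to 0.154 over 20 alternatives.

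Pde8a is a high-affinity enzyme specific for cyclic AMP. Its levels were 8.18, 8.60 and 8.71 in mutants, against 8.73, 8.98 and 9.28 in controls. Every mutant was below every control by a margin smaller than the spread within either group. Pde8a fell by 0.46 (SE 0.10, limma adjusted p = 0.00217), by 0.44 within slide 1 and by 0.37 within slide 2, where it was not called (limma adjusted p = 0.180; 0.00126 to 0.180 over 21 alternatives).

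Pde5a, the cyclic GMP specific enzyme of smooth muscle, differed between slides. Its levels were 6.26, 7.18 and 7.47 in mutants, against 6.07, 6.55 and 6.89 in controls. The 4 mutants on slide 1 (7.15 to 7.47) were all above the controls, and the 2 on slide 2 (6.26 and 6.74) were not. Pde5a rose by 0.53 over both slides (SE 0.17, limma adjusted p = 0.0222), by 0.70 within slide 1 and by 0.078 within slide 2 (adjusted p = 0.870). The difference between slides was not tested. The call was lost without mutant 2 (0.50, adjusted p = 0.0546), mutant 3 (0.48, adjusted p = 0.0563) or mutant 4 (0.44, adjusted p = 0.0646); the limma adjusted p ranged from 0.00169 to 0.870 over 21 alternatives. The summed intensity of 4 smooth muscle and pericyte markers was 1317 to 2422 in mutants and 543 to 2028 in controls, with 1 of 4 called higher, while Cnn1, Myh11 and Tagln were not above background on any array; the part of these cells in the Pde5a values was not tested.

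Among the cyclic AMP specific enzymes that were not called, Pde4d changed by -0.24 (limma adjusted p = 0.0697), Pde7a by 0.33 (adjusted p = 0.103) and Pde4b by 0.35 (adjusted p = 0.185). Pde4d passed the threshold when slide was a term in the fit (-0.28, adjusted p = 0.0301), with cyclic loess normalisation (-0.29, adjusted p = 0.0265) and without control 10 (-0.27, adjusted p = 0.0240), and Pde4b when slide was a term (0.50, adjusted p = 0.00831). Pde2a, which cyclic GMP stimulates, changed by 0.092 (95% interval -0.17 to 0.35). Pde4b stood exactly at the detection limit, on 2 mutant and 4 control arrays. Just outside it, on 5 arrays each, were Pde3b (2 mutant and 3 control arrays), Pde6g (2 and 3) and the PKA subunit Prkar2a (1 and 4). Pde4a and Pde7b were above background on 2 control arrays each, and Pde8b on 1 mutant and 1 control array. Pde3a, Pde4c, Pde6a, Pde6b, Pde6h and Pde9a were above background on none.

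For Pde4dip, the probe with the highest mean changed by -0.032 (95% interval -0.23 to 0.17), while another of its probes was called lower (-0.43, limma adjusted p = 0.00467). These probes carry different transcript accessions in the platform annotation.

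The catalytic subunits of PKA, which carry its kinase activity, overlapped between the groups. Prkaca levels were 11.22, 11.37 and 11.71 in mutants, against 11.27, 11.50 and 11.92 in controls, a change of -0.12 (95% interval -0.31 to 0.076, limma adjusted p = 0.379). Prkacb levels were 12.85, 13.12 and 13.24 in mutants, against 12.95, 13.17 and 13.36 in controls, a change of -0.070 (95% interval -0.22 to 0.085, limma adjusted p = 0.531). These intervals leave out a change of the size seen for Pde8a.

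The regulatory subunits hold the catalytic ones inactive until cyclic AMP binds. Prkar1a, the widely expressed type I subunit and a tumour suppressor of endocrine glands in humans, had levels of 12.33, 12.65 and 12.82 in mutants, against 12.31, 12.78 and 12.94 in controls. Its change was -0.15 (95% interval -0.36 to 0.062, limma adjusted p = 0.302). Prkar1b, a type I subunit found mainly in neurons, had levels of 7.36, 7.69 and 8.05 in mutants, against 7.71, 8.04 and 8.35 in controls. It fell by 0.36 (SE 0.11, limma adjusted p = 0.0245), with overlapping groups. The Prkar1b call was lost without mutant 1 (-0.31, adjusted p = 0.0644), mutant 3 (-0.33, adjusted p = 0.0563) or mutant 4 (-0.29, adjusted p = 0.0717), and within slide 1 (-0.47, adjusted p = 0.0873) and slide 2 (-0.14, adjusted p = 0.580); the limma adjusted p ranged from 0.00807 to 0.580 over 21 alternatives. The neuron list had 5 of 9 markers lower (median change -0.39), and their part in the Prkar1b values was not tested. Of the type II subunits, Prkar2a missed the detection limit and Prkar2b was above background on no array; each has 1 probe here.

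**Figure D3:**
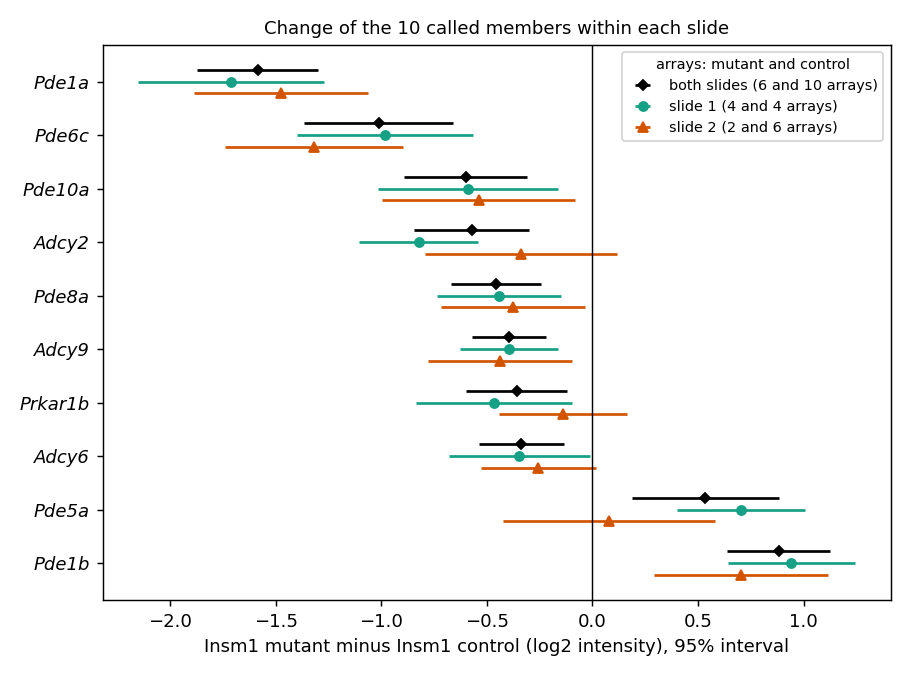
Change of the 10 called members (Insm1 mutant minus Insm1 control, log2 intensity, horizontal axis) with 95% intervals, over both slides, within slide 1 (4 mutants and 4 controls) and within slide 2 (2 mutants and 6 controls). All 10 keep their direction on both slides, with 7 called on slide 1 and 2 on slide 2, and Pde5a, Prkar1b and Adcy6 are nearest to 0 on slide 2.

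Of 12 genes on the array with an Akap symbol, here called anchors by that symbol alone, 8 were measured. Of these, 0 rose or fell in the limma fit (0 at an unadjusted p under 0.05). Their changes ran from -0.041 to 0.12, with 95% intervals between -0.23 and 0.38 in all. Akap9, a large scaffold of the centrosome and Golgi apparatus, had levels of 12.18, 12.37 and 12.49 in mutants and 12.29, 12.41 and 12.51 in controls. Akap12 (gravin), which anchors PKA at the plasma membrane, had levels of 10.57, 11.06 and 11.24 in mutants and 10.47, 10.93 and 11.30 in controls. Both ranges nearly coincide between groups. Other Akap9 probes changed by -0.47 (limma adjusted p = 0.162) and -0.054 (adjusted p = 0.658). Akap1, which tethers PKA to the outer mitochondrial membrane, changed by 0.097 through its probe with the highest mean (limma adjusted p = 0.300) and was called higher through another one (0.32, adjusted p = 0.0120). Akap8 and Akap8l changed by 0.12 each, Akap7 by 0.011, Akap10 by -0.028 and Akap2 by 0.045. Akap3, Akap4, Akap6 and Akap14 were above background on no array; Akap3 and Akap4 are known from sperm and Akap6 from muscle.

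The genes around these enzymes were taken from 6 lists of the pathway, 149 genes in all, of which 83 were tested. Of these, 31 fell and 8 rose, so 47% were called, against 29.9% of all genes, and their median change was -0.18. The falls include Ghrhr, Mtnr1a, Drd2 and Sstr1 (0 mutant arrays each), Gng3 (1) and Fosb (3). These met the detection limit through the controls, so their selection is part of the share called and of the median change. The lists were written with earlier results of these data known, so this count is a description.

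**Figure D4:**
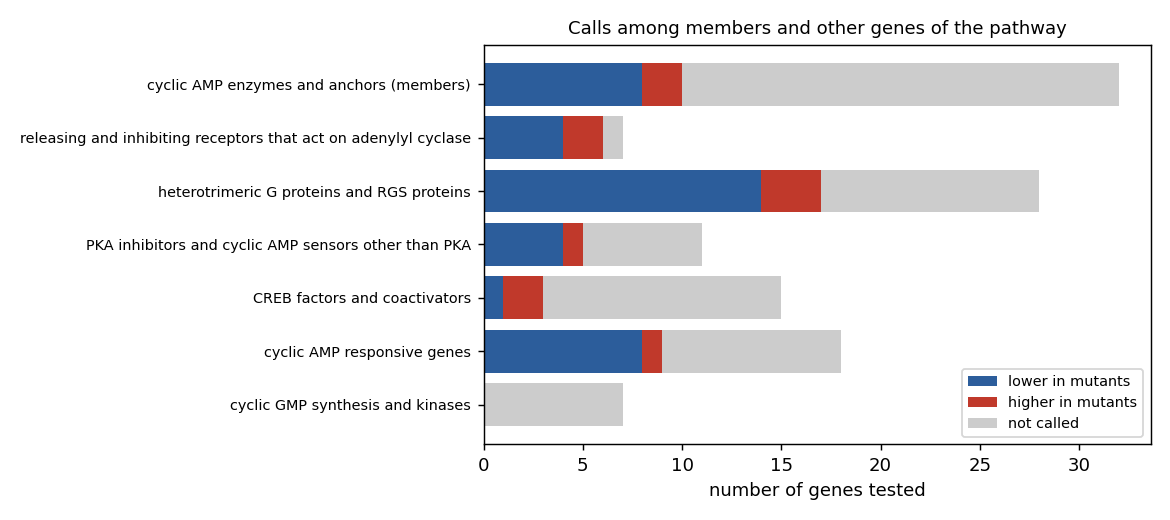
Number of genes tested (horizontal axis) in the member set and in each of the 6 pathway lists, split into those lower in Insm1 mutants, higher in Insm1 mutants and not called. Among receptors and G proteins most called genes are lower, but the 4 lower receptors were selected through the controls alone. None of the 7 cyclic GMP genes is called.

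Upstream of the cyclases, 29 receptors from the list were on the array and 7 could be tested. Most were lower, with 4 that fell and 2 that rose (median change -0.79). Ghrhr, through which growth hormone releasing hormone acts, had levels of 4.32, 4.41 and 4.71 in mutants, against 9.60, 10.69 and 11.23 in controls. It was above background on 0 mutant arrays and was at least 33.1-fold lower (limma adjusted p = 8.31e-13). The melatonin receptor Mtnr1a was at least 2.23-fold lower (adjusted p = 1.70e-07) and the dopamine receptor Drd2 at least 1.67-fold lower (adjusted p = 5.35e-05), both above background on 0 mutant arrays. All 3 entered the tested set through the controls alone, as did Sstr1, the remaining receptor that fell (0 mutant and 6 control arrays). A difference was therefore built into their selection, and into the count of falls and the median change of this list. The limma adjusted p-values come from the fit of the mutant values as read, not from the bounds. Mtnr1a and Drd2 oppose adenylyl cyclase and Ghrhr drives it, so receptors of both signs are among those that fell.

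Of 28 G protein and RGS genes tested, 14 fell and 3 rose (median change -0.29). The 3 smallest adjusted p-values were those of beta and gamma subunits. Gnb3, known from cones and taste cells, had levels of 5.91, 6.35 and 6.75 in mutants and 7.53, 8.28 and 8.61 in controls, and fell by 1.89 (SE 0.15, limma adjusted p = 4.15e-08). The neural gamma subunits Gng4 and Gng3 changed by -2.14 and -1.64. Gng3 was above background on 1 mutant and 10 control arrays. It met the detection limit through the controls, and its mutant level (mean 5.24) is close to background. Gnas, which encodes the stimulatory alpha subunit and was named after its value was seen, fell by 0.41 (SE 0.10, limma adjusted p = 0.00449). Its levels were 12.61, 12.70 and 13.05 in mutants and 12.74, 13.21 and 13.48 in controls.

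Of 11 PKA inhibitors and other cyclic AMP sensors, 4 fell and 1 rose. The cyclic nucleotide-gated pacemaker channels Hcn2 and Hcn3 changed by -1.60 (SE 0.21, limma adjusted p = 1.83e-05) and -1.13 (SE 0.20, adjusted p = 0.000311). Bves, a cyclic AMP binding membrane protein of muscle, rose by 0.92 (SE 0.20, adjusted p = 0.00168); the summed intensity of 10 skeletal muscle markers was 15090 to 22470 in mutants, against 11000 in control 10 and at most 1409 in the other controls, and their part in the Bves values was not tested. Popdc3 and Popdc2, on the same list, did not rise with it. Popdc3 fell by 0.79 (SE 0.18, limma adjusted p = 0.00266), and Popdc2 was not called (0.21, adjusted p = 0.209). The PKA inhibitor genes Pkia and Pkig were not called (changes of 0.049 and -0.27).

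Downstream, 15 genes for CREB factors and coactivators were measured, and 2 rose and 1 fell. Creb5 rose by 0.90 (SE 0.16, limma adjusted p = 0.000250) and the endoplasmic reticulum-bound factor Creb3l4 by 0.53 (SE 0.10, adjusted p = 0.000910), and the kinase Sik2, which restrains CREB coactivators, fell by 0.33 (SE 0.11, adjusted p = 0.0317). Creb1 itself changed by -0.17 (adjusted p = 0.327). Of 18 genes known to respond to cyclic AMP, 8 fell and 1 rose (median change -0.26). The glycoprotein hormone subunit Cga changed by -2.91 (adjusted p = 5.40e-09) and the immediate early gene Fos by -1.66 (adjusted p = 9.54e-05), whereas Rgs2, also in the G protein list, rose by 0.61 (adjusted p = 1.02e-05). These genes answer to other signals as well. Of 7 genes for cyclic GMP synthesis and its kinases, 0 were called by limma (1 at an unadjusted p under 0.05).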

How the data were processed

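Per the file headers, the authors deposited for 25697 probes on every array an averaged bead intensity and its detection p-value. A second deposited table holds intensity values that are background-subtracted and scaled to 1 common median, as read from the values. The submitters' processing notes name GenomeStudio, with no version. Raw intensities were background-corrected by limma's nec from the detection p-values (offset 16), quantile-normalised and log2-transformed (R 4.3.3 with limma 3.58.1). The 13813 probes detected at 0.01 on 6 or more arrays were fitted with lmFit and eBayes on genotype alone, with Benjamini-Hochberg adjustment over all of them, a procedure tested on simulated data. The probe with the highest mean stood for its gene. Of 52 family genes, 51 matched RefSeq (GRCm38.p6) by Entrez identifier; Akap2 kept the platform's name.

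A probe above background on no array of a group has only a bound, with each dim array taken at its lowest detected value where that is higher. Both slides held both groups (4 mutants with 4 controls, and 2 with 6), so within-slide values are given. The number of arrays limits the precision, and because nothing says how the samples were taken, a p-value reflects only how far they vary, which may be technical. Values are given for every called member, every cyclase and PKA subunit, members with another probe called, and the up to 3 called genes of each pathway list with the smallest adjusted p; other genes with values were named after these were seen. The members and lists were chosen with earlier results of these data known.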

Additional observations from a re-analysis of the deposited data

Results flagged for a closer look

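The 6 mutants and 10 controls of each of the 32 members were searched for single arrays far from the rest, 64 groups in all, and chance alone would mark about 1 in 20 of them. There was 1: Akap1 read 9.46 in Insm1 control 9, against 9.29 in the next highest control and 9.16 in the lowest.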

How the results depend on the processing

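Under 12 alternatives that used all arrays of the fit or the replicate block (background correction, normalisation, the deposited processed values, filters, variance model, array weights, slide as a block, and another probe), every called member that was tested again kept its direction and its call, 118 of 118 values. The exceptions came from fewer arrays or a stricter threshold. Members called lower numbered 8 in the main setting, 5 on slide 1 only and 2 on slide 2 only, where 2 mutants were left. Members called higher numbered 2 in the main setting, 0 on slide 2 only, 1 at an adjusted p under 0.01, and 4 with the lowest-mean probe of each gene, which added Adcy4 and Akap1. Leaving out each mutant array or control 10 (the other 9 controls were not left out) gave 1 to 3 higher and 7 to 9 lower. Among the members whose values were followed, directions turned only for 2 that no alternative called: Adcy7 changed by -0.061 on slide 1 only and Prkaca by 0.049 on slide 2 only. With the replicate block, over the 12 samples numbered 1 to 6 in both groups, 3 members were higher and 9 lower, adding Pde4b and Pde4d. The labels do not say that a number marks a shared litter or day. Deviations correlated at over 0.1 in 5 of the 6 same-numbered pairs, and 4 of 6 mutants correlated best with the control of their own number. The pair numbered 3 was at 0.040, and as not every pair was over 0.1 the numbers were not taken as pairs. Signal over background limits Pde6c, Pde10a, Pde4b, Adcy1 and Pde1c, which were not above background on all arrays. With detection required on all 16 arrays, 27 members were left.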
